A study of Mus musculus with 4 samples.

Results

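Collagen genes were followed in RNA sequencing libraries of mouse hippocampus, where they were identified by symbol: "Col", a type number, the letter "a" and a chain number, with no measured value used in the choice. There were 43 such genes among 22609 gene symbols. The libraries came from female mice that had all lost their ovaries 1 week before a global cerebral ischemia, in which both common carotid arteries were clipped for 20 min, and the hippocampus was taken after 24 h of reperfusion. The FLOX-control group (2 libraries) was the floxed control for Cyp19a1, which encodes aromatase and so the last step of estrogen synthesis, and the GFAP-ARO-KO group (2 libraries) carried the deletion of floxed Cyp19a1 by a Cre recombinase that the GFAP promoter drives in astrocytes. No sham-operated or ovary-intact samples were analysed here, so every value is a level after ischemia without ovarian hormones. The labels used here name no strain or age. The labels do not say whether the libraries of a group came from separate animals, so the p-values measure only the spread between these libraries.

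Collagens are secreted or membrane-bound proteins whose chains wind around each other into rod-shaped helices, and each type is built from its own set of chains. Fibrillar collagens form the cables of connective tissue, collagen IV forms the sheet of basement membranes around vessels and under the pia, and collagen VI forms beaded filaments beside it. In brain, basement membrane collagen comes mainly from endothelial cells, pericytes and astrocyte borders, while fibrillar collagens I and III belong mostly to fibroblasts of the meninges and of larger vessels. Smaller families include the FACIT collagens, which sit on fibrils, and transmembrane collagens, some of which neurons make.

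The libraries held 27930696 to 34878375 reads assigned to genes, of which 11151 to 13747 fell on collagen genes. Levels are read counts scaled to library size (CPM), and a count of 0 in a library allows a level of up to 0.0855 to 0.106 CPM, for counting error only. Hippocampal neuron markers summed to 8368 and 8964 CPM in the controls and to 7707 and 7623 CPM in the knockouts, and none of the 12 was at 0 in any library. Camk2a alone gave 4953 and 5652 CPM of the control sums and 4674 and 4664 CPM of the knockout sums. The 12 did not all move the same way, as given with the other cell type markers below. The targeted gene Cyp19a1 had 3 and 2 reads in the control libraries and 1 and 9 in the knockout libraries, which leaves the genotype labels unchecked. The second knockout library stood apart: its 13 markers of meningeal and perivascular fibroblasts summed to 493 CPM, against 104 and 117 CPM in the controls, with 92.3 CPM in the first knockout. Its 12 markers of mural cells (pericytes and vascular smooth muscle) summed to 465 CPM, against 163 and 180 CPM in the controls, with 188 CPM in the first knockout. In bulk tissue, fewer cells of a type and less RNA per cell cannot be told apart.

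Of the 43 collagen genes, 40 had enough reads to be tested and 7 of these differed between the genotypes at an adjusted p under 0.05 in edgeR's quasi-likelihood test with Benjamini-Hochberg adjustment over all 15011 tested genes. That is 17.5% of the tested collagens, beside 20.4% of all tested genes. Only Col2a1 rose, 2.50% of the tested collagens beside 9.39% of all genes, and 6 fell, 15% beside 11.0%. The genes that fell were Col27a1, Col16a1, Col11a1, Col5a3, Col6a1 and Col6a6. Both knockout libraries lay below both controls for 10 collagens (25%, beside 32.8% of all genes) and above both for 8 (20%, beside 32.0%). The median log2 fold change was 0.07 over the tested collagens and -0.00 over all tested genes. Without the second knockout library 10 collagens of 41 tested were called, 2 higher and 8 lower, in a fit that called 18.1% of all genes. Without the first knockout library 13 of 41 were called, 8 higher and 5 lower, in a fit that called 31.5%. Without the first or the second control 4 and 3 were called, all lower, where 5.87% and 5.29% of all genes were. Of the 3 collagens left untested, Col17a1 gave 2, 2, 5 and 8 reads, Col24a1 10, 6, 6 and 10, and Col28a1 7, 4, 4 and 7, in the order control 1, control 2, knockout 1, knockout 2.

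Collagen IV chains made up the largest share of the collagen signal per transcript length. On the scale of CPM per kilobase of the longest annotated coding transcript, the 6 collagen IV genes made up 28.4% and 30.4% of the family total of the control libraries and 34.2% and 29.0% of the knockout libraries. The 11 fibrillar genes held 14.8% and 13.5% in the controls, 9.72% in the first knockout and 21.5% in the second, so that the knockouts lay on either side of the controls. Summed over the family, this level was 64.7 and 73.2 CPM per kilobase in the control libraries and 57.2 and 70.5 in the knockout libraries. Col4a1 and Col4a2 ranked highest over the mean of the libraries, followed by Col6a1 and the amyloid plaque-associated transmembrane collagen Col25a1. Col16a1, next by that mean, had 6.41 and 7.13 CPM per kilobase in the control libraries but 2.29 and 1.98 in the knockout libraries, and Col1a2 was behind only Col4a1 and Col4a2 in the second knockout library, at 7.46. Col17a1, a hemidesmosome collagen of skin, ranked lowest.

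**Figure D1:**
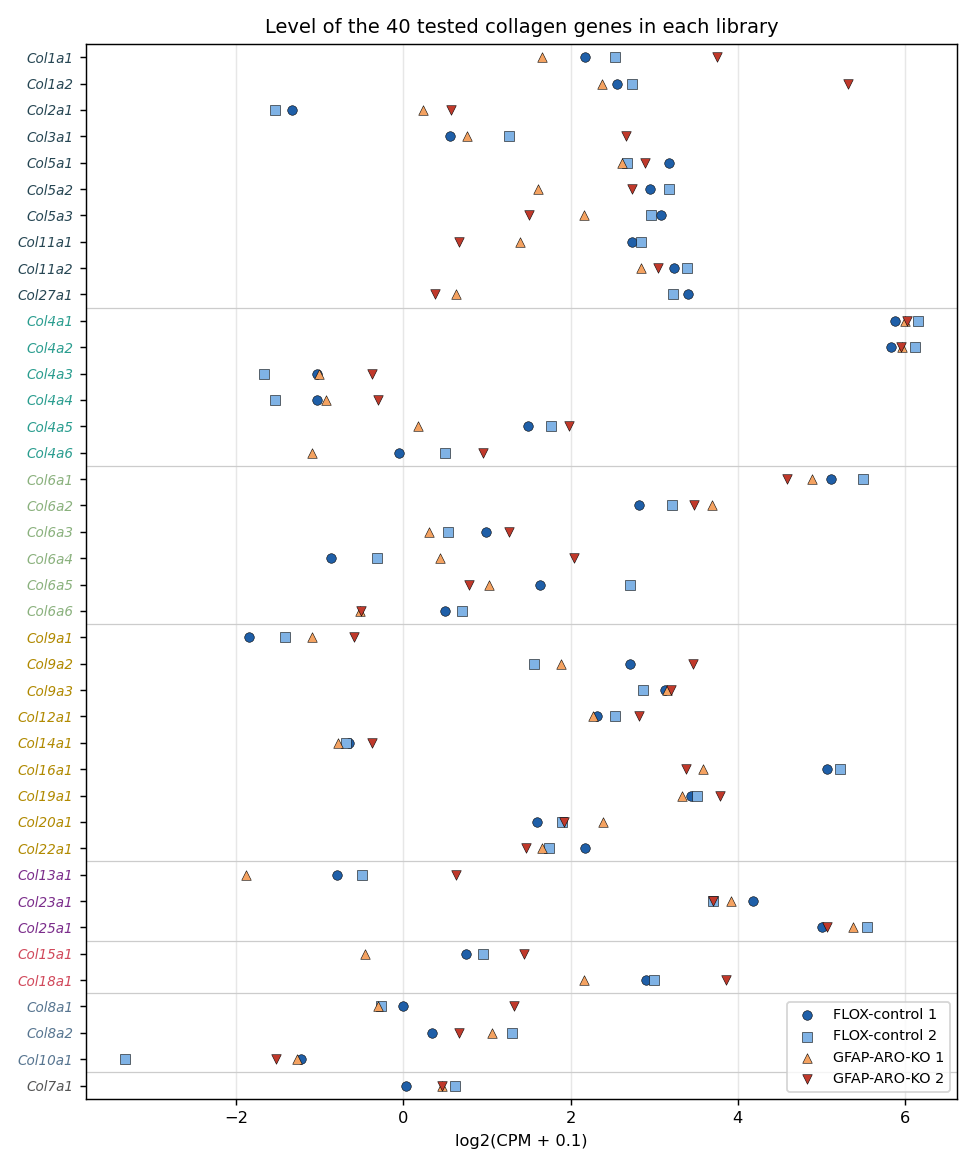
Level of each of the 40 tested collagen genes as log2(CPM + 0.1), with 1 mark per library (circles and squares, FLOX-control; triangles, GFAP-ARO-KO) and genes grouped by class from fibrillar (top) to collagen VII (bottom). For Col27a1, Col16a1 and Col11a1 both knockout marks lie left of both controls, whereas for Col1a1, Col1a2 and Col3a1 only the second knockout library lies to the right.

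Among the fibrillar collagens, 3 of 10 tested genes fell and 1 rose, beside 11.0% and 9.39% of all tested genes. Col27a1, a chain of collagen XXVII that forms thin fibrils and is best known from cartilage, stood at 10.5 and 9.24 CPM in the controls and at 1.45 and 1.21 CPM in the knockouts, from 352, 302, 51 and 34 reads. The libraries of each group lay close together and the groups were far apart. The log2 fold change was -2.88 ± 0.23 (SE, 2 libraries per group; adjusted p = 0.00102), a level 7.35-fold lower. It ranged from -3.03 to -2.75 with each library left out in turn, and all 4 of those fits called it. The gene lies on the plus strand of chromosome 4 (mm9, 62875038 to 62996025).

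Col11a1, a chain of collagen XI, which nucleates and limits the width of fibrils, stood at 6.54 and 7.07 CPM in the controls and at 2.54 and 1.49 CPM in the knockouts. The groups did not overlap, and the second knockout library was the lower of its pair. The log2 fold change was -1.72 ± 0.26 (adjusted p = 0.00648), 3.31-fold lower, and it was called in all 4 fits that left out a library (-2.19 to -1.41). Its partner chain Col11a2 stood at 9.35 and 10.4 CPM in the controls and at 7.09 and 8.16 CPM in the knockouts (-0.38 ± 0.17, adjusted p = 0.154).

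Col5a3, the least widespread chain of collagen V, which builds into collagen I fibrils, stood at 8.39 and 7.68 CPM in the controls and at 4.39 and 2.73 CPM in the knockouts. Both knockout libraries were below both controls. Its log2 fold change was -1.15 ± 0.24 (adjusted p = 0.0181), 2.22-fold lower. Leaving out the first or the second control ended the call (adjusted p = 0.102 and 0.0761). The other collagen V chains did not pass the test: Col5a2 stood at 7.65 and 8.93 CPM in the controls and at 2.96 and 6.56 CPM in the knockouts (-0.83 ± 0.34, adjusted p = 0.122), and Col5a1 had a log2 fold change of -0.20 ± 0.23.

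Col2a1, the chain of collagen II, the main fibril of cartilage, was the 1 collagen that rose. It had 10 and 8 reads in the control libraries and 38 and 39 in the knockout libraries, which is 0.299 and 0.245 CPM against 1.08 and 1.38 CPM. The groups did not overlap, but the level was low in all libraries, and the gene passed the filter on low counts through the knockout libraries alone. This gave a log2 fold change of 2.15 ± 0.43 (adjusted p = 0.0151), 4.43-fold higher. The call did not hold when either control was left out (adjusted p = 0.0867 and 0.114).

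Collagen XVI, a FACIT collagen that associates with fibrils and fibrillin microfibrils, gave the smallest p after Col27a1. Its gene Col16a1 stood at 33.4 and 37.1 CPM in the controls and at 11.9 and 10.3 CPM in the knockouts, from 1118, 1214, 418 and 291 reads. These were the deepest counts among the members that differed by more than 2-fold at the threshold, and the groups were well separated. The log2 fold change was -1.66 ± 0.14 (adjusted p = 0.00115), 3.16-fold lower, with a range of -1.77 to -1.56 when a library was left out and a call in all 4 of those fits. The other 8 FACIT genes were not called. Among them, Col19a1, made by interneurons in mouse brain, stood at 10.8 and 11.4 CPM in the controls and at 10 and 13.7 CPM in the knockouts, and Col9a3 stood at 8.63 and 7.22 CPM against 8.83 and 9.11 CPM. Exons of Col9a3 and Tcfl5 overlap on opposite strands by 234 bp, 6.07% of its exons; whether reads were counted by strand is not stated in the labels, so reads there could come from either gene.

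**Figure D2:**
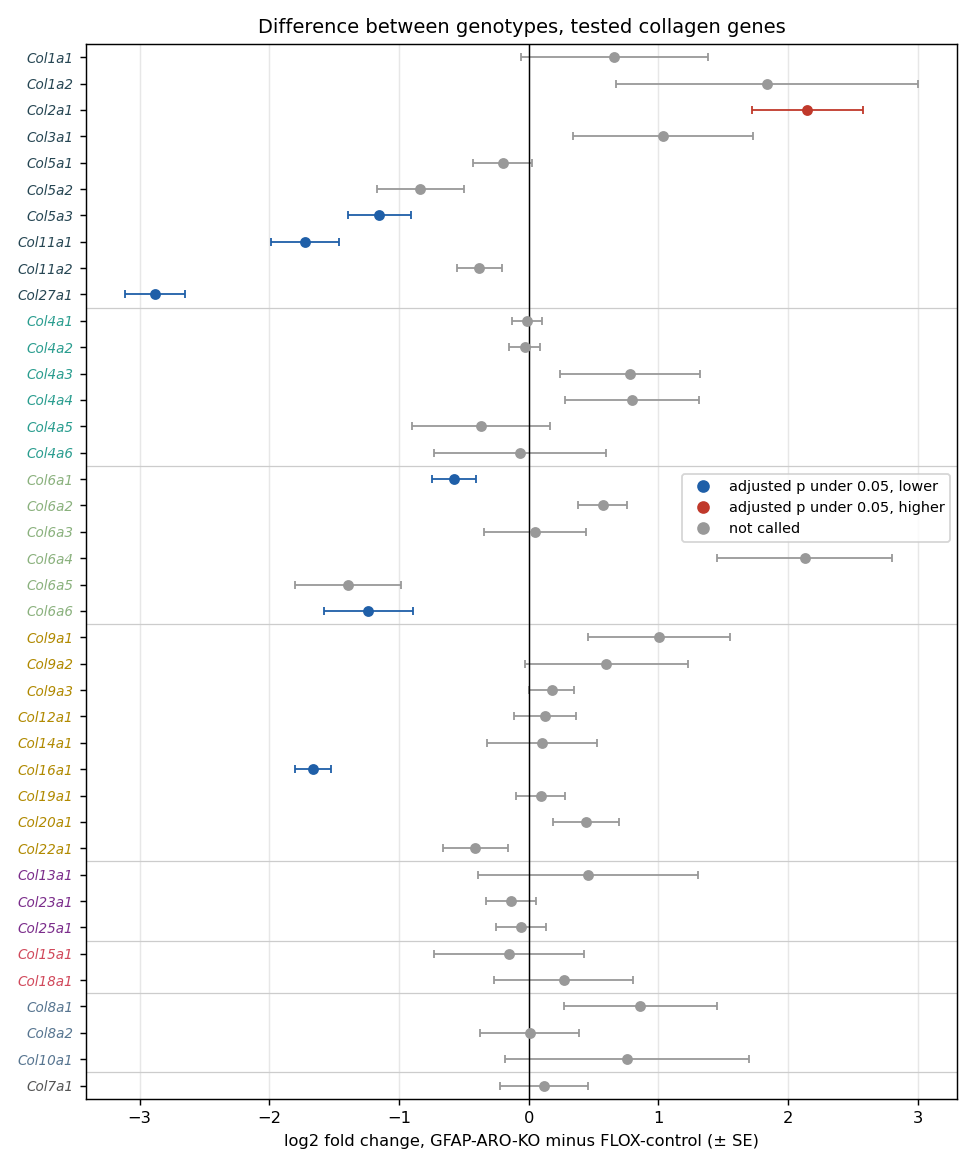
Log2 fold change of GFAP-ARO-KO over FLOX-control with its standard error for the 40 tested collagen genes, 2 libraries per group, grouped by class in the same order as the levels. Blue points mark the 6 genes that fell, led by Col27a1 at -2.88, the red point marks Col2a1 at 2.15, and the longest bars belong to genes whose knockout libraries differ, such as Col1a2 at 1.84 ± 1.16.

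Col27a1 and Col16a1 were the most firmly separated members, so their start regions are shown. Both lie on chromosome 4, as do Col15a1, Col8a2 and Col9a2, which were not called. The windows run from 250 bases before to 50 after the annotated start (RefSeq, GRCm38.p6), at chr4:63215162-63215461 for Col27a1 and chr4:130047590-130047889 for Col16a1, both on the plus strand and written 5′ to 3′. Capitals mark GGGCGG (the GC box), CCAAT and TATAAA, each searched on both strands, so that CCGCCC and ATTGG are the reverse complements of the first and second; no marked match overlaps another.
Col27a1: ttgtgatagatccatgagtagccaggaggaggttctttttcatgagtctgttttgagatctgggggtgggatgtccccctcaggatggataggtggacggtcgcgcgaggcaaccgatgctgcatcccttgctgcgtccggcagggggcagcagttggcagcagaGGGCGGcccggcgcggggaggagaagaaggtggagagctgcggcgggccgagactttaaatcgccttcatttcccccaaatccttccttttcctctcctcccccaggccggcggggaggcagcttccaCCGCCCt
Col16a1: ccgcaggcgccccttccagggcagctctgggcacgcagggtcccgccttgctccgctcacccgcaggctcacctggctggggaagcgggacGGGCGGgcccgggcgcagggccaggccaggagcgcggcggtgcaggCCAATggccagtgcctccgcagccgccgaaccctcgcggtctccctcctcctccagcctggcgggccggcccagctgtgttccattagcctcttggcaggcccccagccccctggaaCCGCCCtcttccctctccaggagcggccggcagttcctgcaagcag
Both windows hold 2 GC boxes, Col16a1 also holds 1 CCAAT, and TATAAA is in neither. RefSeq windows were given for 35 of the 43 collagen genes. GGGCGG was found in 35.7% of all 32851 windows and in 23 of 38 collagen windows, CCAAT in 37.4% of all and 13 of 38, and TATAAA in 13.6% of all and 5 of 38. A match describes the letters and not a bound site.

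Some cell type markers were also lower in both knockout libraries, as Col27a1, Col16a1, Col11a1 and Col5a3 were. Over all tested genes, 11.0% fell and 9.39% rose. Microglia and macrophage markers summed to 385 and 427 CPM in the controls and to 196 and 202 CPM in the knockouts, and 7 of 8 fell, such as Cx3cr1 (log2 fold change -1.42) and Aif1 (-1.74). Of 8 markers of thalamic neurons, Slc17a6 (117 and 111 CPM in the controls against 11.1 and 19.7 CPM) and Rorb (-0.70) fell and Prkcd (0.74) rose. The 7 other than Slc17a6 summed to 99.3 and 106 CPM in the control libraries and to 106 and 123 CPM in the knockout libraries. Astrocyte markers summed to 6521 and 6914 CPM in the controls and to 5597 and 5950 CPM in the knockouts; of 9, Gfap (-0.94) and Aqp4 (-1.40) fell and Gjb6 (1.11) rose. Oligodendrocyte lineage markers summed to 4394 and 4159 CPM in the controls and to 3640 and 3882 CPM in the knockouts, with 5 of 9 lower. Of 12 hippocampal neuron markers, Prox1 (0.63), Dsp (1.13) and C1ql2 (0.90) rose, Neurod6 (-0.67) fell and 8 were not called. No marker of these lists was at 0 in any library, and their part in the collagen differences was not tested.

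None of the 6 collagen IV genes passed the test, in the edgeR fit, with DESeq2 or with limma-voom, and 0 had an unadjusted p under 0.05 in the edgeR fit. Without the second knockout library Col4a5 was called lower. Col4a1, which with Col4a2 forms the main network of every basement membrane, stood at 59.0 and 71.0 CPM in the controls and at 63.6 and 65.1 CPM in the knockouts. Col4a2 stood at 57.0 and 69.3 CPM in the controls and at 62.2 and 61.6 CPM in the knockouts. Both knockout values of each gene lay between the controls. The log2 fold changes were -0.01 ± 0.12 (adjusted p = 0.947) and -0.03 ± 0.12 (adjusted p = 0.884), and the first turned to 0.01 with upper-quartile scaling.

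The collagen IV genes lie head to head in pairs, and the read counts within a pair kept similar ratios across the libraries. The ratio of Col4a1 to Col4a2 reads was 1.03, 1.02, 1.02 and 1.06 in the 4 libraries, in the order given above. Col4a3 and Col4a4, chains of the kidney and lung network, gave ratios of 1, 0.875, 0.933 and 0.95, from only 7 to 20 reads per gene and library. For both of these genes the knockout libraries lay above the controls, without a call. Col4a5 over Col4a6, the smooth muscle and epithelial chains, gave 3.14, 2.51, 2.77 and 2.10, with 95% exact counting intervals that overlapped in all libraries. The annotated 5′ ends (mm9, GENCODE vM1) of Col4a1 and Col4a2 overlap by 22 bp on chromosome 8, those of Col4a4 and Col4a3 lie 71 bp apart on chromosome 1, and those of Col4a6 and Col4a5 lie 1308 bp apart on the X chromosome. The shared start region of Col4a1 and Col4a2 is shown because the levels of both genes matched in every library: the Col4a1 window is chr8:11312777-11313076 on the minus strand, the Col4a2 window is chr8:11312555-11312854 on the plus strand (RefSeq, GRCm38.p6), and they share 78 bases. Capitals mark the same motifs as above.
Col4a1: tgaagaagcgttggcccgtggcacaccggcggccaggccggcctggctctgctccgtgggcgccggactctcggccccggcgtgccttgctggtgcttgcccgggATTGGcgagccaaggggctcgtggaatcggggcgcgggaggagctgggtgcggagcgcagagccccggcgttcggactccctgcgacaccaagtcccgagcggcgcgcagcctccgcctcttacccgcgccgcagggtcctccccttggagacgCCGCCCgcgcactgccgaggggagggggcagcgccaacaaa
Col4a2: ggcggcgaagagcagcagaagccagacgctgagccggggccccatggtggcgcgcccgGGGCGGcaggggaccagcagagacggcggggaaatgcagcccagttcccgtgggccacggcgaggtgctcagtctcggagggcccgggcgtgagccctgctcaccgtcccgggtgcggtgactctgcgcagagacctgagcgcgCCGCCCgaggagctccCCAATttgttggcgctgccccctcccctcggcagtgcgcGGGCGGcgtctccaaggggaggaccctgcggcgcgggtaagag
Read along its own strand, the Col4a1 window holds 1 CCAAT (as ATTGG) and 1 GC box (as CCGCCC). The Col4a2 window holds 1 CCAAT and 3 GC boxes.

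**Figure D3:**
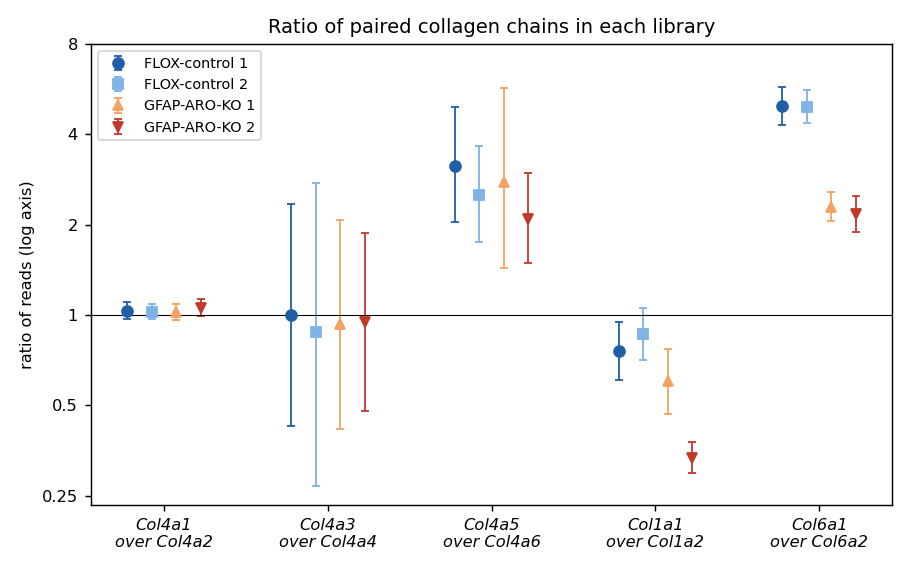
Ratio of reads between chains of 5 collagen pairs in each library on a log axis, with 95% exact binomial counting intervals. Col4a1 over Col4a2 stays between 1.02 and 1.06, and Col6a1 over Col6a2 is 4.96 and 4.94 in the FLOX-control libraries but 2.29 and 2.17 in the GFAP-ARO-KO libraries.

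In collagen VI, 2 of 6 genes fell and 0 rose, beside 11.0% and 9.39% of all tested genes. Its common form needs Col6a1, Col6a2 and another chain, for which Col6a3, Col6a4, Col6a5 and Col6a6 are alternatives. Col6a1 stood at 34.5 and 45.2 CPM in the controls and at 29.4 and 23.9 CPM in the knockouts. All knockout values were below the controls, though the controls differed more from each other than the first control from the first knockout. The log2 fold change was -0.58 ± 0.17 (adjusted p = 0.0492), 1.49-fold lower, just inside the threshold. It was outside with 5 other settings (adjusted p of 0.0518 to 0.0572) and in 3 of the 4 fits without a library, up to an adjusted p of 0.313 without the second control.

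Col6a2 stood at 6.96 and 9.15 CPM in the controls and at 12.8 and 11.0 CPM in the knockouts, and was not called (0.57 ± 0.19, adjusted p = 0.0717). The ratio of Col6a1 to Col6a2 reads was 4.96 (95% exact counting interval 4.3 to 5.73) and 4.94 (4.36 to 5.62) in the controls, compared with 2.29 (2.05 to 2.57) and 2.17 (1.89 to 2.49) in the knockouts. The intervals overlapped within each genotype and not between genotypes. They cover counting error only, and an exact two-sided permutation test of 2 libraries against 2 cannot give a p below 0.333. The pair was chosen with earlier results of these data known. Per kilobase of transcript, Col6a1 was 5.63 and 5.61 times Col6a2 in the controls, compared with 2.60 and 2.46 times in the knockouts.

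Of these alternative chains, Col6a6 fell: it stood at 1.31 and 1.53 CPM in the controls and at 0.598 and 0.603 CPM in the knockouts, from 44, 50, 21 and 17 reads. The groups did not overlap, and the libraries within each were close. On the log2 scale the change of Col6a6 was -1.24 ± 0.34 (adjusted p = 0.0418), 2.36-fold lower, but the call was lost in all 4 fits without a library (adjusted p of 0.0708 to 0.233), with DESeq2 (adjusted p = 0.176) and with the replicate block (adjusted p = 0.0508). Col6a6 shares 322 stretches of 50 bases, 4.3% of its own, with its neighbour Col6a5, so reads there could not be told apart. Multiply aligned reads stay out of the gene counts, as stated below. Col6a5 itself stood at 3.02 and 6.46 CPM in the controls and at 1.94 and 1.63 CPM in the knockouts (-1.39 ± 0.41, adjusted p = 0.0528). The controls differed by more than 2-fold. Col6a4 pointed the other way, at 0.448 and 0.704 CPM in the controls and at 1.25 and 4.01 CPM in the knockouts (2.13 ± 0.68, adjusted p = 0.0708). Col6a5 and Col6a4 were called, in those directions, with DESeq2 (adjusted p = 0.0135 and 0.00772), with the replicate block (adjusted p = 0.0248 and 0.00407) and with edgeR's legacy estimation (adjusted p = 0.0407 and 0.0428). Col6a3, the usual partner, had a log2 fold change of 0.05 ± 0.40.

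The knockout libraries differed from each other for many collagens. In 13 of the 40 tested collagens the second knockout library was at least 2-fold above the first, which is 32.5%, beside 3.17% of all tested genes. In 0 of 40 it was at least 2-fold below, beside 1.33% of all genes. The control libraries were at least 2-fold apart, in either direction, for 4 of the 40, counting Col10a1, which had 0 reads in the second control. The share of all tested genes for the controls was not computed. In 11 of the 13 the second knockout was above both controls and the first was not; in Col6a4 both knockouts were above the controls, and in Col5a2 the second knockout was below them. The 13 genes, in descending order of the ratio, were Col13a1 (8.51), Col1a2 (7.87), Col4a6 (4.98), Col1a1 (4.37), Col15a1 (4.19), Col3a1 (3.91), Col4a5 (3.77), Col8a1 (3.39), Col18a1 (3.28), Col6a4 (3.20), Col9a2 (3.04), Col5a2 (2.21) and Col6a3 (2.02).

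Collagen I, the main fibril of fibrous tissue, is made of Col1a1 and Col1a2 chains. Col1a2 stood at 5.80 and 6.55 CPM in the controls and at 5.07 and 39.9 CPM in the knockouts, from 194, 214, 178 and 1125 reads. Col1a1 stood at 4.39 and 5.66 CPM in the controls and at 3.05 and 13.3 CPM in the knockouts. For both chains the first knockout was the lowest of the 4 libraries and the second the highest, so the groups overlapped. The log2 fold changes were 1.84 ± 1.16 for Col1a2 (adjusted p = 0.353) and 0.66 ± 0.72 for Col1a1 (adjusted p = 0.560). Without the second knockout library they were -0.27 and -0.71, and without the first 2.69 and 1.41, both called. The ratio of Col1a1 to Col1a2 reads was 0.758, 0.864 and 0.601 in the other libraries and 0.334 (95% exact counting interval 0.297 to 0.376) in the second knockout, where Col1a2 was further above the other libraries than Col1a1 was.

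Col3a1, the chain of collagen III, which accompanies collagen I in vessel walls, stood at 1.37 and 2.29 CPM in the controls and at 1.60 and 6.24 CPM in the knockouts. The second knockout was again the highest and the other libraries overlapped. Its fold change on the log2 scale was 1.04 ± 0.69 (adjusted p = 0.336), -0.19 without the second knockout library and 1.77 without the first. Col13a1, a transmembrane collagen of cell junctions, stood at 0.478 and 0.612 CPM in the controls and at 0.171 and 1.45 CPM in the knockouts.

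Col18a1, Col15a1, Col4a5 and Col4a6, all basement membrane collagens, also differed between the knockout libraries. Col18a1, the precursor of endostatin, stood at 7.35 and 7.86 CPM in the controls and at 4.39 and 14.4 CPM in the knockouts, with the controls between the knockouts. Its log2 fold change was 0.27 ± 0.53 (adjusted p = 0.755), with a call lower without the second knockout library (-0.78) and a call higher without the first (0.92). Col15a1, its relative, stood at 1.58 and 1.84 CPM in the controls and at 0.627 and 2.62 CPM in the knockouts. Col4a5 stood at 2.72 and 3.30 CPM in the controls and at 1.03 and 3.87 CPM in the knockouts, and Col4a6 at 0.866 and 1.32 CPM against 0.370 and 1.84 CPM. In each of these 4 genes the first knockout library was the lowest and the second the highest.

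Most markers of fibroblasts and some markers of mural cells were high in the same library. In the second knockout library 11 of 13 fibroblast markers were at least 2-fold above the first knockout, and 1 marker had 0 reads in another library. Igf2, the most abundant, stood at 25.8 and 37.0 CPM in the controls and at 27.7 and 225 CPM in the knockouts. Of 12 mural cell markers 6 were at least 2-fold higher in the second knockout than in the first: Acta2, Tagln, Myh11, Cnn1, Des and Vtn. Acta2, the actin of smooth muscle, stood at 8.18 and 6.82 CPM in the controls and at 14.9 and 114 CPM in the knockouts. The rest were less than 2-fold apart. Their ratios of second to first knockout were 1.31 (Pdgfrb), 1.23 (Abcc9), 1.22 (Rgs5), 1.10 (Notch3), 0.857 (Kcnj8) and 0.830 (Cspg4). None of the 12 endothelial markers and 4 of the 10 choroid plexus markers were at least 2-fold higher in the second knockout. The endothelial sum was 225, 235, 242 and 316 CPM. The part of these cells in the collagen levels of that library was not tested.

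**Figure D4:**
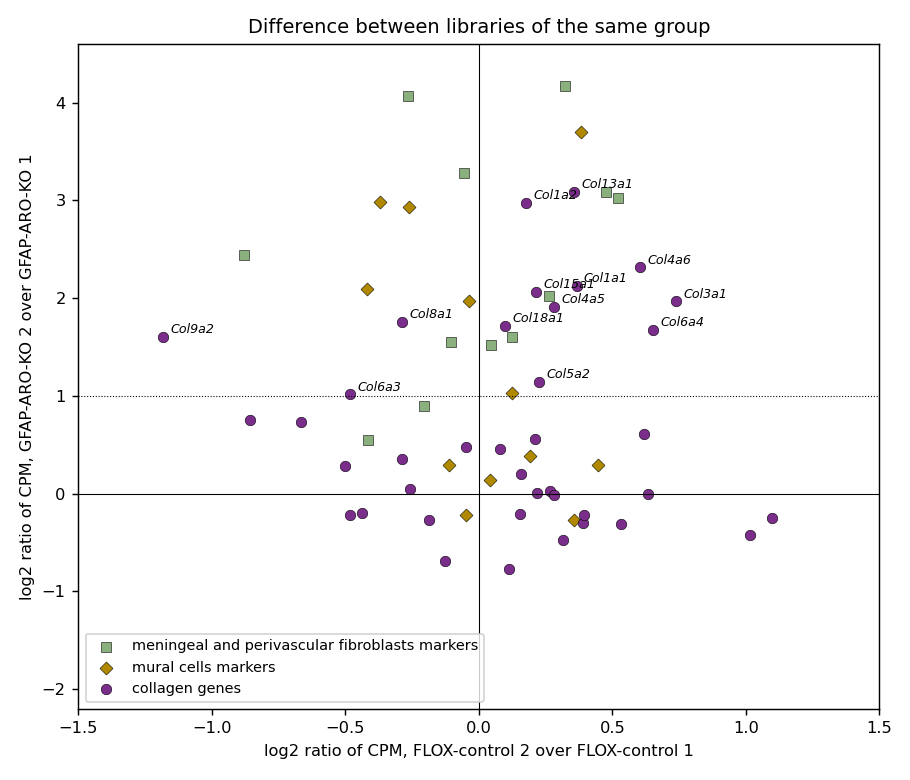
Log2 ratio of CPM between the libraries of a group, FLOX-control on the horizontal and GFAP-ARO-KO on the vertical axis, for 39 tested collagen genes (Col10a1, at 0 in a control, is not drawn) and for tested markers of fibroblasts and mural cells. The 13 labelled collagens lie on or above the dotted 2-fold line, among the fibroblast markers, while the other collagens lie below it.

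Among the remaining collagens, which were not called, Col25a1 stood at 32.1 and 46.4 CPM in the controls and at 41.6 and 33.5 CPM in the knockouts (-0.06 ± 0.19), and Col23a1, another transmembrane collagen, at 18 and 12.9 CPM against 15.1 and 13 CPM (-0.14 ± 0.19). For both genes the groups overlapped. Col10a1, a growth plate collagen, gave 11 reads in the first control and 0 in the second, against 11 and 7 in the knockouts, so its fold in the main fit is not given. Col9a2 stood at 6.45 and 2.85 CPM in the controls and at 3.59 and 10.9 CPM in the knockouts. None of the 3 short-chain network genes (Col8a1, Col8a2 and Col10a1), nor Col7a1 of the anchoring fibrils, was called.

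Genes for the modification, folding and export of collagen chains came next: of 17 tested, 6 fell and 2 rose, with a median log2 fold change of 0.03, where 11.0% of all tested genes fell and 9.39% rose. P4ha3, a catalytic subunit of prolyl 4-hydroxylase, which stabilises the helix, stood at 6.15 and 6.06 CPM in the controls and at 1.91 and 2.16 CPM in the knockouts (-1.59 ± 0.22, adjusted p = 0.00451). P4ha1, the main catalytic subunit, stood at 70.9 and 71.4 CPM against 44.9 and 32.8 CPM (-0.87 ± 0.15, adjusted p = 0.0100), and Glt25d1, which adds galactose to hydroxylysine, at 63.2 and 63.3 CPM against 42.8 and 41.8 CPM (-0.58 ± 0.10, adjusted p = 0.00930). The groups did not overlap for any of these. The others that fell were the lysyl hydroxylases Plod1 (-0.62) and Plod3 (-0.73) and the collagen chaperone Serpinh1 (-0.62, adjusted p = 0.0346). Fkbp10, a prolyl isomerase (0.60, adjusted p = 0.0488), and Glt25d2 (0.75, adjusted p = 0.0293) rose. P4hb, the abundant partner subunit of the prolyl hydroxylases, stood at 165 and 167 CPM in the controls and at 167 and 171 CPM in the knockouts (adjusted p = 0.867). With either control left out, fewer of the 17 were called, as were fewer of all tested genes.

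Among 12 tested genes for trimming and crosslinking outside the cell, 3 rose and 2 fell, beside 9.39% and 11.0% of all tested genes. Adamts14, a procollagen N-proteinase, stood at 2.30 and 2.42 CPM in the controls and at 8.97 and 7.13 CPM in the knockouts (1.78 ± 0.22, adjusted p = 0.00372). Pcolce2, an enhancer of C-propeptide removal, stood at 2.96 and 3.52 CPM against 7.32 and 11.3 CPM (1.51 ± 0.27, adjusted p = 0.0101), and Adamts3 also rose (0.53, adjusted p = 0.0377). Loxl1, a lysyl oxidase of elastic fibres, stood at 8.96 and 7.68 CPM against 2.85 and 3.90 CPM (-1.32 ± 0.22, adjusted p = 0.00873), and the C-proteinase Tll1 fell as well (-1.24, adjusted p = 0.0146). Bmp1, the most abundant C-proteinase, stood at 53.4 and 56.3 CPM against 48.3 and 46.5 CPM (adjusted p = 0.180). Lox, the collagen crosslinking oxidase, stood at 0.269, 0.214, 0.370 and 3.65 CPM and was high in the second knockout library alone. Fewer genes of the list were called without either control and more without the first knockout library, as over all tested genes.

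Collagen receptors, proteases and matrix partners were read in the same fit, where 11.0% of all tested genes fell and 9.39% rose. Of 9 tested receptors 1 fell, Itga11, the alpha chain of an integrin for fibrillar collagen, at 4.12 and 2.48 CPM in the controls and at 1.42 and 0.816 CPM in the knockouts (-1.52 ± 0.38, adjusted p = 0.0315). This call was lost without the first control. Ddr1, the most abundant tyrosine kinase receptor for collagen, stood at 119 and 111 CPM in the controls and at 95.6 and 79.4 CPM in the knockouts (adjusted p = 0.0504). Gpr56, another abundant receptor of the list, pointed the other way, at 106 and 108 CPM in the controls and at 141 and 116 CPM in the knockouts (0.26, adjusted p = 0.145). Of 6 proteases, Mmp9 (0.99, adjusted p = 0.0333) rose and Mmp15 (-0.77, adjusted p = 0.0272) fell; both calls were lost when either control was left out, and 0 proteases were called higher with DESeq2. Of 11 basement membrane partners of collagen IV, the laminin chains Lamc1 (0.44, adjusted p = 0.0302) and Lama5 (0.63, adjusted p = 0.0308) rose. Both calls were lost when either control was left out. The number called among the 11 changed with the library left out, as it did over all tested genes. Agrn, a heparan sulfate proteoglycan and the most abundant of these, stood at 179 and 192 CPM against 154 and 145 CPM (adjusted p = 0.0574).

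None of 10 fibril partners was called by edgeR, DESeq2 or limma-voom, and 2 had an unadjusted p under 0.05 in the edgeR fit. The smallest p in that fit were those of Fn1 (log2 fold change -0.31, adjusted p = 0.111), Aspn (1.58, adjusted p = 0.120) and Prelp (-0.62, adjusted p = 0.185). Fn1 stood at 69.3 and 75.4 CPM in the controls and at 53.4 and 63.8 CPM in the knockouts. Sparc, a collagen-binding glycoprotein and the most abundant, stood at 295 and 335 CPM in the controls and at 323 and 338 CPM in the knockouts. Fmod, a small proteoglycan on fibrils, stood at 3.14, 3.92 and 4.04 CPM in the other libraries and at 61.4 CPM in the second knockout, and Ogn at 1.55, 2.85 and 1.62 CPM against 15.7 CPM. In 6 of the 10 the second knockout was at least 2-fold above the first. How many of the 10 were called depended on which library was left out, as it did over all tested genes.

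**Figure D5:**
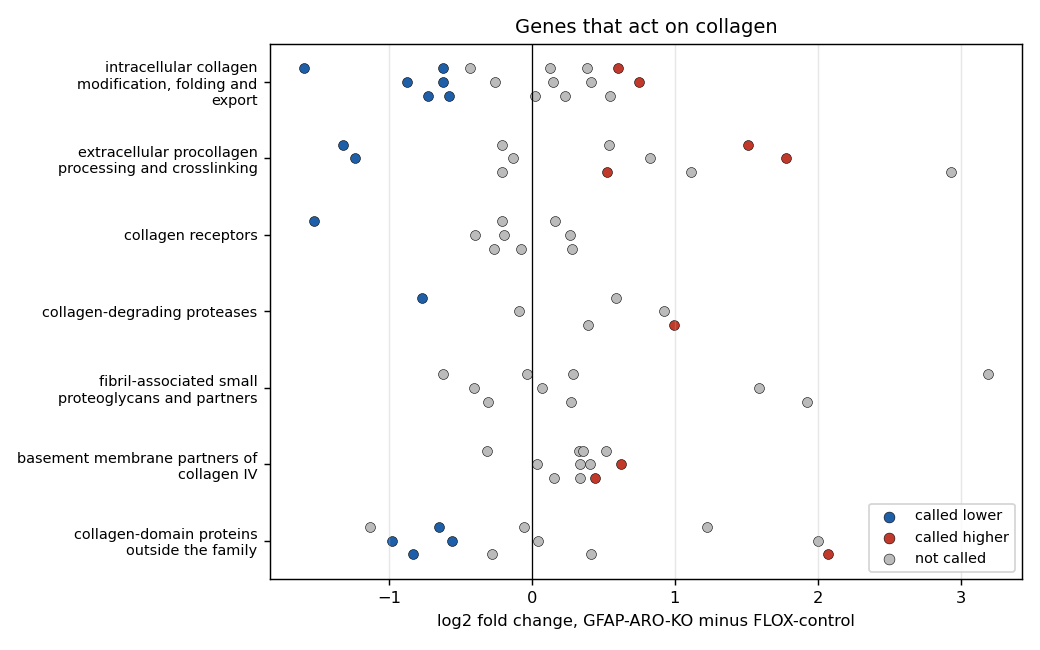
Log2 fold change of GFAP-ARO-KO over FLOX-control for each tested gene of 7 lists that act on or resemble collagen, blue where a gene fell, red where it rose and grey where it was not called. The modification list holds 6 blue and 2 red points, and the far right grey points of the crosslinking and fibril lists, Lox at 2.93 and Fmod at 3.19, are genes high in the second knockout library alone.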

How the data were processed

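The libraries, made from total RNA, gave single-end reads of 50 bp, per the labels' protocols. Per the submitters' processing notes, the tools were bcl2fastq, TopHat2 2.0.8b and HTSeq with build mm9; runs in duplicate were combined, per the series' design text. The authors deposited raw counts per gene symbol. Which HTSeq version, annotation and strand setting were used is not stated. The 5 tally entries that name no gene held 45.2% to 47.3% of each file and were left out.

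Genes were kept by filterByExpr (minimum count 10, total 15) and tested with edgeR 4.0.16 in R 4.3.3 (TMM factors, robust glmQLFit with legacy=FALSE, Benjamini-Hochberg adjustment, threshold 0.05). Standard errors were taken as the size of the log2 fold change over the root of the F statistic. Through the filter, 4 tested members passed by both knockouts and fewer than both controls, and 1 the reverse. Alternatives used DESeq2 1.42.0 and limma 3.58.1. Steps were tested on simulated data. Same-numbered libraries did not deviate together (r = -0.0057 across genes). So few libraries cannot exclude a pairing, and the labels name none.

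Members, lists and the pairs of chains were chosen with earlier results of these data known, though members were taken by symbol alone. Every collagen could be named, with values per library for called members, Col1a1, Col1a2, Col3a1, Col4a1, Col4a2 and the 3 most abundant per length; of each pathway list the 3 smallest p and the most abundant gene; of each cell list the most abundant and the 2 smallest p. Other list genes were named after their values were seen. Lengths and coordinates come from GENCODE vM1 on mm9. Some deposited entries count multiply aligned reads, and those stay out of gene counts.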

Additional observations from a re-analysis of the deposited data

How the results depend on the processing

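Col27a1, Col16a1 and Col11a1 were called lower in every setting run; their ranges stand with their values. Both other scalings, both other filters and limma-voom lost Col6a1 of the 7 calls and gained none. DESeq2 lost Col6a6 and gained Col6a4 and Col6a5, and legacy estimation gained those 2 without a loss. Col6a4 made the count of higher collagens 2 with DESeq2, with legacy estimation and with the replicate block. The replicate block called 9 collagens, 6 of them among the 7, with Col6a6 lost and Col5a2, Col6a4 and Col6a5 gained; replicate numbers pair no animals in the labels. Leaving out each library in turn gave 0 to 8 collagens higher, 3 to 8 lower, and 813 to 4821 genes called over the whole table, beside 3061. The lowest counts of all genes came without either control (901 and 813), the highest without the first knockout (4821). The cause was not tested, and a lone library was assumed to vary like the other group.

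The sign of the log2 fold change turned for genes that were not called: Col13a1 (-0.19) and Col6a3 (-0.014) with limma-voom, Col4a1 (0.010) with upper-quartile scaling, Col4a6 (0.013) and Col8a2 (-0.0070) with DESeq2, and Col8a2 (-0.0089) with legacy estimation. With a library left out it turned, in these ranges, for Col10a1 (-0.21 to 6.21), Col12a1 (-0.16 to 0.40), Col13a1 (-1.64 to 1.41), Col14a1 (-0.12 to 0.35), Col15a1 (-1.43 to 0.62), Col18a1 (-0.78 to 0.92), Col19a1 (-0.13 to 0.31), Col1a1 (-0.71 to 1.41), Col1a2 (-0.27 to 2.69), Col23a1 (-0.36 to 0.13), Col25a1 (-0.30 to 0.22), Col3a1 (-0.19 to 1.77), Col4a1 (-0.14 to 0.12), Col4a2 (-0.16 to 0.12), Col4a5 (-1.54 to 0.36), Col4a6 (-1.54 to 0.76), Col5a1 (-0.43 to 0.084), Col6a3 (-0.49 to 0.51), Col7a1 (-0.16 to 0.46), Col8a1 (-0.18 to 1.56), Col8a2 (-0.41 to 0.59) and Col9a2 (-0.37 to 1.33). The 6.21 of Col10a1 came from the fit without the first control, where the only control left had 0 reads, so its size cannot be read. Groups of 2 libraries and counts below about 50 reads, as for Col2a1 and Col6a6, limit what can be told.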

Other observations

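Proteins that carry a collagen-like stretch but are not collagens were read in the same fit. Of 12 tested, 4 fell and 1 rose, beside 11.0% and 9.39% of all tested genes. The chains of complement C1q, which microglia make in brain, all fell: C1qa stood at 72.6 and 82.4 CPM in the controls and at 44.8 and 42.3 CPM in the knockouts (log2 fold change -0.83 ± 0.11, adjusted p = 0.00426), C1qb fell by 0.65 (adjusted p = 0.00975) and C1qc by 0.56 (adjusted p = 0.0146) on the log2 scale. Microglia and macrophage markers were lower in the same libraries, at a sum of 196 and 202 CPM against 385 and 427 CPM, and their part in the C1q levels was not tested. Emid1, an EMI domain protein, fell (-0.97 ± 0.26, adjusted p = 0.0380), and Colec11, a lectin of the complement system, rose (2.07 ± 0.50, adjusted p = 0.0274) from 19 and 10 reads to 84 and 34. Without either control library Colec11 was not called, and fewer of the 12 were called, as were fewer of all tested genes.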
